A study of Mus musculus with 3 samples.

Results

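The barcodes described here carried skeletal muscle RNA in a library made from patellar tendon, and they numbered 81 of the 1015 filtered barcodes of that library and of the 6588 filtered barcodes of the whole series. They were selected on their own RNA: in the second 20-week library, a barcode was taken when the unique molecular identifiers (UMIs, 1 for each captured RNA molecule) of Acta1, Mylpf, Tnnt3, Tnnc2, Ckm and Myh4 summed to at least 2% of its UMIs. The study applied droplet single-cell RNA-seq, which reads the 3' ends of transcripts, to wild-type (WT) mice aged 2 or 20 weeks, with 1 library at 2 weeks and 2 libraries at 20 weeks. Tendons cut between the kneecap and the shin bone were digested with type I collagenase, strained, and sorted by flow cytometry for cells that were neither hematopoietic nor endothelial. The labels name no marker of the sort, do not say how many animals were in a library, and give no treatment, so every group shares the WT genotype, the tissue and the digestion.

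A skeletal muscle fibre is one long syncytium with many nuclei, formed by fusion of myoblasts, in which thick filaments of myosin pull on thin filaments of actin when calcium binds the troponin complex on tropomyosin. Fibres come in kinds named for their myosin heavy chain: slow type I fibres use Myh7, and the fast types IIa, IIx and IIb use Myh2, Myh1 and Myh4. Slow and fast fibres also use different genes for the light chains and for all 3 troponin subunits, so these pairs read out fibre kind. The patellar tendon joins the quadriceps muscle, by way of the kneecap, to the tibia.

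All values come from single libraries, so no difference below has a replicate check and none was tested. Intervals are exact, at the 95% level, and cover counting error only. The 4 markers of the muscle fibre label are among the 6 selecting genes, so their presence is set by the selection and checks nothing. Skeletal actin (Acta1) and muscle creatine kinase (Ckm) had UMIs in 81 of 81 barcodes, the fast regulatory light chain Mylpf in 54 and the fast troponin T Tnnt3 in 42. Of the muscle genes outside the selecting set, tropomyosin beta (Tpm2), telethonin (Tcap) and Cox6a2 were each in 81 of 81. The 3 libraries shared 2, 3 and 0 cell barcodes in pairs, and no shared barcode was among those selected.

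The barcodes past the threshold were 7.98% of the filtered barcodes of the second 20-week library (95% interval 6.39 to 9.82) and held 289001 UMIs, 5.18% of its filtered UMIs. The same threshold took 0 of 609 filtered barcodes in the first 20-week library, where the 3 counts that a count of 0 allows make a share of up to 0.493% and the exact interval reaches 0.604%. It took 14 of 4964 in the 2-week library, or 0.282% (0.154 to 0.473). The median filtered barcode had 6570 UMIs at 2 weeks, 2848 in the first 20-week library and 5132 in the second. Both 20-week libraries have the same labels apart from the replicate number, and the muscle RNA was in 1 of them.

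**Figure D1:**
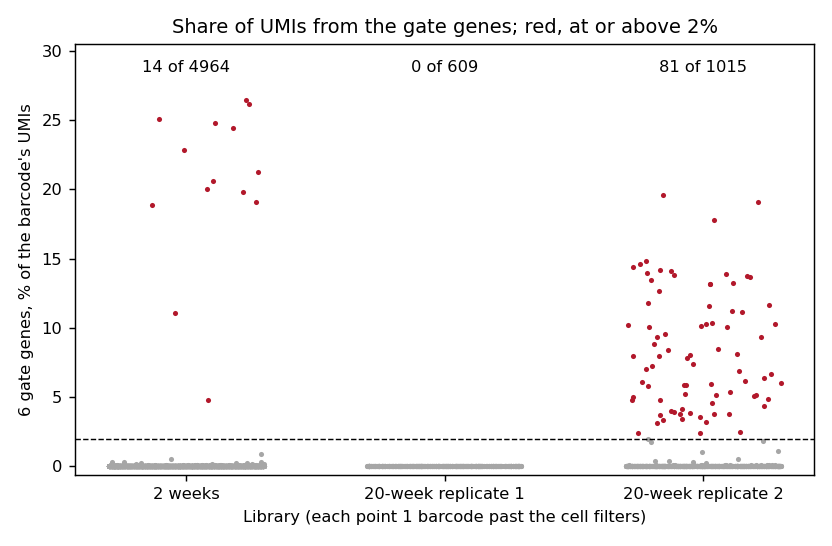
Share of each filtered barcode's UMIs (%) from the 6 selecting genes, 1 point a barcode, by library; the dashed line is the 2% threshold and red points pass it. The second 20-week library has 81 red points up to 19.6%, the 2-week library 14 and the first 20-week library 0.

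The 6 genes made up between 2.41 and 19.6% of a selected barcode's UMIs, with a median of 7.83%. Few barcodes lay just below the line, and more lay above it at under 5%. Against 81 at 2%, moving the threshold to 0.5% took 87 barcodes and moving it to 5% took 60. The lowest 5 inside held 2.41, 2.41, 2.46, 3.17 and 3.18%, and all 5 carried more slow than fast muscle UMIs. The highest 5 outside held 1.97, 1.83, 1.74, 1.12 and 1.05%. Of these 5, the barcodes at 1.97 and 1.12% were slow muscle in their RNA, with 130 and 57 UMIs of the 5 slow genes named below against 10 and 1 of the 5 fast ones. The barcodes at 1.83 and 1.05% carried 369 and 226 UMIs of 8 fibroblast genes. They also had 189 and 98 UMIs of the 5 fast genes and 0 of the slow ones. The barcode at 1.74% had 44 fast UMIs, 1 slow UMI and 4 fibroblast UMIs.

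In the other 934 barcodes of the library, 747 (80.0%) had no UMI of the 6 genes. Their 751 UMIs were 0.0142% of the RNA, and 10 barcodes held 506 of them. For comparison, the 6 genes made up 0.00393% of the RNA of the unselected barcodes at 2 weeks and 0.000832%, or 15 UMIs, in the first 20-week library.

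Each of the 6 genes is a well-known muscle gene. Acta1 encodes the actin of the thin filament and lies at chr8:123891769-123894751 on the minus strand of GRCm38. It had 12404 UMIs in the selected barcodes and 257 in the 934 others, a level of 42920 against 48.6 UMIs per 1000000 UMIs (CPM). Its share of a single barcode's UMIs ran from 1.56 to 7.30%, with a median of 4.37%. Where the fast genes were low, a barcode could pass only through Acta1 and Ckm. Ckm, which regenerates ATP from phosphocreatine (chr7:19404776-19422841, plus strand), had 2523 against 91 UMIs and ran from 0.0972 to 3.21%. Acta1 and Ckm were the members of the selecting set found in all 81.

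The other 4 genes belong to fast fibres and were uneven among the 81. Tnnc2, fast troponin C (chr2:164777161-164779967, minus strand), had 3047 UMIs in 54 barcodes. Tnnt3, fast troponin T (chr7:142498836-142516009, plus strand), had 2539 UMIs in 42 barcodes. Mylpf (chr7:127208890-127214298, plus strand) had 2057 UMIs in 54 barcodes. Myh4, the type IIb myosin heavy chain (chr11:67238029-67260446, plus strand), had 41 UMIs in 7 barcodes, 20 of them in 1 barcode.

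The proportions among the 6 genes differed between the selected and the other barcodes of the same library. Acta1 was 54.9% of their summed UMIs in the selected barcodes (54.2 to 55.5) and 34.2% in the others (30.8 to 37.7). Tnnt3 was 11.2% against 20.2%, and Mylpf 9.10% against 15.4%. In the 928 of these others with under 0.5% of UMIs from the set, Acta1 was 39.2% (33.6 to 45.1) and Tnnt3 22.2%.

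The sequences upstream of these genes are shown because the genes define the barcodes and one of them, Myl3, stands for the slow set. Each line is the 250 bases before the RefSeq transcription start in GRCm38.p6, with capitals for matches on either strand to the E-box CAGCTG, bound by MyoD family factors, the TATA box TATAAA, the MEF2 box and the CArG box bound by SRF.
Acta1, chr8:123894776-123895025, minus strand: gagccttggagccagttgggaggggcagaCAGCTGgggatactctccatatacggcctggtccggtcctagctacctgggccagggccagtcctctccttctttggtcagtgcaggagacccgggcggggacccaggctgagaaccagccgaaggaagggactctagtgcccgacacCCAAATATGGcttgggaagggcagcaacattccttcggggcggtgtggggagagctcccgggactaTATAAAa
Ckm, chr7:19410844-19411093, plus strand: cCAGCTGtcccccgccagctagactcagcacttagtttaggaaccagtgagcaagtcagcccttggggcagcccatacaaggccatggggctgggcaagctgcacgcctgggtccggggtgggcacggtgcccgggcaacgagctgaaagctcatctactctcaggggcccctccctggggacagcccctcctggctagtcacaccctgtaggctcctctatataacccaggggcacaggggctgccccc
Myh4, chr11:67237562-67237811, plus strand: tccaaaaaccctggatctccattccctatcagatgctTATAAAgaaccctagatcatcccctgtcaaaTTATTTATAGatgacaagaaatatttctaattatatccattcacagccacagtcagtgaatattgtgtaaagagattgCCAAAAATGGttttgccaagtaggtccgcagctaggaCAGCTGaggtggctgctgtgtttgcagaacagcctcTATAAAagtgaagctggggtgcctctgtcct
Myl3, chr9:110763428-110763677, plus strand: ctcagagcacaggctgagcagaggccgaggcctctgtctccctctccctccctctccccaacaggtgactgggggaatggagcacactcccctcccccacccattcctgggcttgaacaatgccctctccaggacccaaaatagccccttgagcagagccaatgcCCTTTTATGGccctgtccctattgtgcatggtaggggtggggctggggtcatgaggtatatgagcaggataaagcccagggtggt
The E-box was found in 4 of the 5 selecting genes with an entry (Acta1, Ckm, Myh4 and Mylpf), and 13.0% of all 32851 RefSeq windows of this length hold it. The CArG box was found in 2 of the 5, Acta1 and Myh4, against 1.47% of all windows, the MEF2 box in Myh4 alone, against 2.92%, and TATAAA in Acta1 and Myh4, against 12.4%. Of the 5 slow genes, Myl2 and Tnni1 held the E-box and Myl3 the CArG box. A match is a match of letters in this window and nothing more.

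Muscle genes that played no part in the selection were high together with it. Over the 11274 genes with at least 20 UMIs, 1156 (10.3%) were at least 2-fold higher in the selected barcodes than in the other 934 and 4262 (37.8%) at least 2-fold lower, on log2(CPM + 10). This contrast is the one the selection was made on, and it is given as a description. Of the 97 genes of the muscle lists outside the selecting set, 82 had 20 UMIs, and 72 of these were higher and 4 lower, with a median log2 ratio of 5.10 against -0.70 over all genes. With the selecting genes and the fibre-kind and developmental genes included, the muscle lists summed to a median of 24.5% of a barcode's UMIs. The range was 17.4 to 38.4%, and the median in the others 0.194%. The selecting genes alone had a median of 7.83%, so part of this sum was set by the selection.

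Thick-filament genes were higher in 10 of 10 cases, with a median log2 ratio of 5.98. The slow regulatory light chain Myl2 had 4344 against 88 UMIs and the slow essential light chain Myl3 2894 against 69. Its fast counterpart Myl1 had 1557 against 84. Myosin-binding protein Mybpc1 had 216 against 13 UMIs, whereas the fast-fibre form Mybpc2 had 33 against 10, and the M-line protein genes Myom1 and Myom3 had 31 and 23 UMIs. These genes hold the myosin lattice together, and none came near the light chains in UMIs.

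Thin-filament genes were higher in 10 of 10 cases, with a median of 7.08. Tpm2, tropomyosin beta, had 3538 UMIs and was in 81 of 81 barcodes. Slow troponin C (Tnnc1) had 3366 UMIs against 84, slow troponin T (Tnnt1) 2195 against 76, and fast troponin I (Tnni2) 2131 against 120. Tpm1 had 2249 against 491 UMIs, and 284 of the other barcodes had it. Tropomyosin 1 is known to be made outside muscle too. The nebulin gene Neb, the thin-filament ruler, had 164 against 21 UMIs. Lmod2, which extends thin filaments at their pointed ends, had 368 against 22.

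Z-disc and cytoskeletal genes were higher in 19 of 20. The small heat shock protein Cryab, a chaperone of desmin and titin, had 3145 UMIs in 80 of 81 barcodes, and telethonin (Tcap), which caps titin, 1574 in 81. Myoz2 had 1265, desmin (Des) 916 and the muscle LIM protein Csrp3 370 UMIs, and titin (Ttn) had 325 in 60 barcodes. The exception was dystrophin, Dmd, which had 24.2 against 22.3 CPM, from 7 UMIs. Filamin C (Flnc) was 1.19 higher on the log2 scale.

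Genes of calcium release and uptake were higher in 15 of 16, with a lower median of 3.64. Sarcolipin (Sln), an inhibitor of the calcium pump, had 363 UMIs against 23 and the fast-fibre pump Atp2a1 334 against 15. Jsrp1 had 172 and triadin (Trdn) 69 UMIs. Cacng1 and Casq1, a calcium channel subunit and the calcium store protein, had 39 and 21 UMIs and none in the other 934 barcodes. The channel genes Clcn1 and Scn4a of this list had 0 UMIs in the selected barcodes and 2 and 3 in the others, so no level can be given at this depth.

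Energy genes particular to muscle were higher in 13 of 15, with a median of 5.42. The heart and muscle cytochrome oxidase subunit Cox6a2 had 2293 against 90 UMIs and was in 81 of 81 barcodes. Myoglobin (Mb), the oxygen store, had 2018 against 66, another muscle form of a cytochrome oxidase subunit, Cox8b, 1293 against 67 and the fatty acid binding protein Fabp3 1238 against 41. Phosphoglycerate mutase 2 (Pgam2) and beta-enolase (Eno3) had 447 and 418 UMIs. Hexokinase 2 (Hk2), at 221 against 214 CPM, and Phka1 were the members that differed by less than 2-fold.

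**Figure D2:**
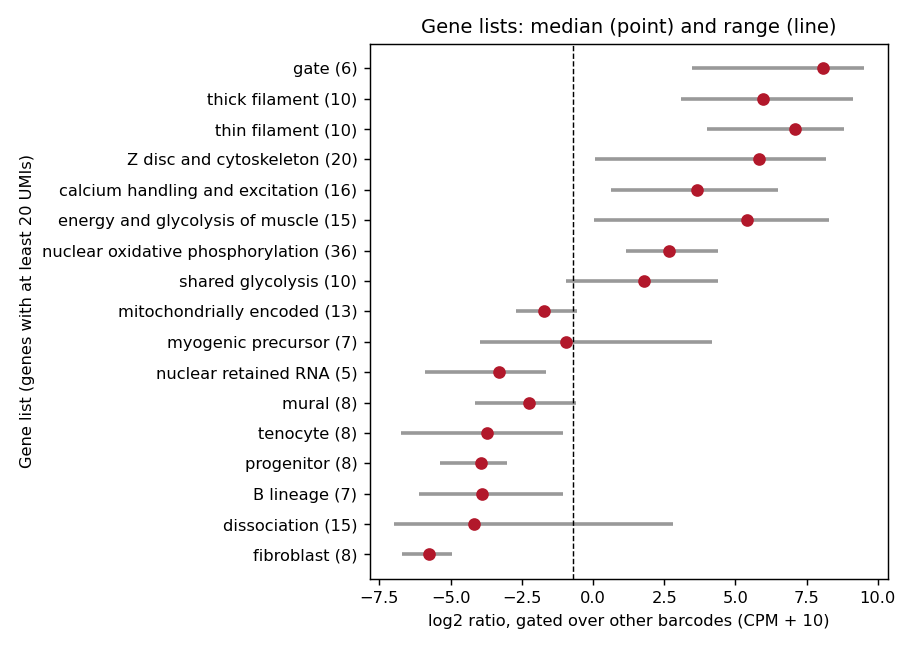
Log2 ratio of CPM + 10 in the 81 selected over the 934 other barcodes for genes of each list with at least 20 UMIs (their number in brackets); points are medians, lines run from the lowest to the highest gene, and the dashed line is the median of all genes, -0.70. The filament, Z-disc, calcium and muscle energy lists have medians from 3.64 to 7.08, nuclear oxidative phosphorylation 2.65 and mitochondrially encoded genes -1.71. The muscle lists of synapse and atrophy (2.28) and of the myotendinous junction (-1.23) are not drawn.

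The 81 barcodes fell into a slow and a fast kind. The split was made after the values were seen, on 5 slow genes (Myl2, Myl3, Tnnt1, Tnni1 and Tnnc1) against 5 fast ones (Mylpf, Myl1, Tnnt3, Tnni2 and Tnnc2), of which Mylpf, Tnnt3 and Tnnc2 also selected the barcodes. The slow share of these UMIs was above 50% in 44 barcodes (54.3%, 42.9 to 65.4) and below it in 37. It was over 85% in 41 barcodes and under 30% in 35, which leaves 5 between. No barcode lay between 47.0 and 70.4%, so the place of the line within that gap moves none. The troponin I pair enters this share, as do all the pairs described next.

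Neither troponin I gene was a selecting gene. Only the slow gene Tnni1 was found in 41 barcodes, only the fast gene Tnni2 in 33, and both in 7. With the share taken from the other 4 pairs, so that it holds no troponin I, 45 barcodes were slow-majority and 36 fast-majority, and troponin I was on the same side in 80 of 81. In that share the gap at the line was narrower, from 46.9 to 53.0%. In the 44 slow-majority barcodes Tnni1 had 986 UMIs and Tnni2 9, and in the 37 fast-majority barcodes they had 5 and 2122. The troponin C pair had 3357 slow and 176 fast UMIs in the first group and 9 and 2871 in the second. Its fast gene was less far apart per UMI: Tnnc2 was 23.9-fold higher in the fast group, against 345-fold for Tnni2. Its slow gene was further apart: Tnnc1 was 255-fold higher in the slow group, against 135-fold for Tnni1. The light chains overlapped more. Myl3 had 595 UMIs in 27 fast-majority barcodes, and Myl1 282 UMIs in 25 slow-majority ones.

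Myosin heavy chain, not used for the split, followed it. The 4 adult genes had 782 UMIs together, of which Myh7 was 52.9% (49.4 to 56.5), Myh1 26.5%, Myh2 15.3% and Myh4 5.24% (3.79 to 7.05). Myh7 was in 44 of 44 slow-majority barcodes, with 409 UMIs, and in 2 of 37 fast-majority ones, with 5 UMIs. Myh1 had 0 and 207 UMIs in the same order, and Myh4 0 and 41. Myh2 had 7 UMIs in 4 slow-majority barcodes and 113 in 22 fast-majority ones.

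Most barcodes carried a single myosin. Of the 81, 66 had UMIs of 1 of the 4 genes, 12 of 2, 1 of 3 and 2 of none. Among the 64 barcodes with at least 3 myosin UMIs, 52 (81.2%) had 1 gene only and in 59 the leading gene held at least 80%. By leading gene those 64 were 37 Myh7, 15 Myh2, 9 Myh1 and 4 Myh4, where 1 barcode with a tie of Myh1 and Myh2 counts under both.

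**Figure D3:**
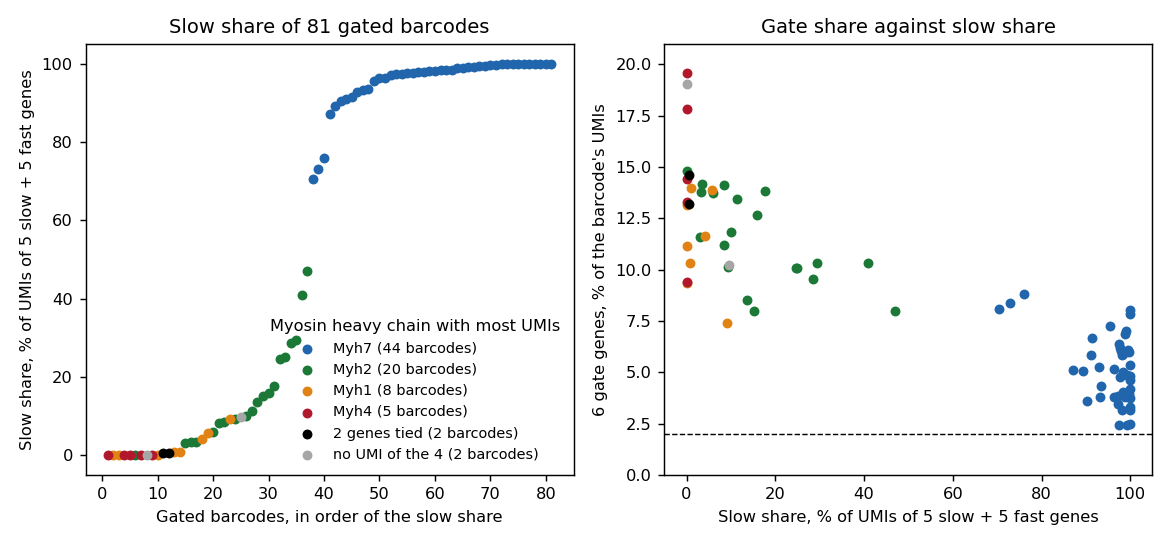
Left, slow share of the 81 selected barcodes (% of the UMIs of 5 slow and 5 fast genes) in order, coloured by the myosin heavy chain gene with most UMIs; right, the share of the 6 selecting genes (%) against the slow share, with the 2% threshold dashed. All 44 barcodes above the gap at 47.0 to 70.4% have Myh7 as leading myosin, and they lie closer to the threshold than the 37 below it.

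The selecting set holds 4 fast genes, and the slow barcodes sat lower in it. Their share of the 6 genes had a median of 5.05% (2.41 to 8.81), against 11.8% (7.42 to 19.6) in the fast-majority barcodes. A threshold of 10% took 0 slow-majority and 30 fast-majority barcodes, one of 5% took 23 and 37, and one of 1% took 46 and 40. Adding the slow genes and Myh7 to the set, an alternative chosen after seeing the data, took 83 barcodes, 46 slow and 37 fast. The balance of slow to fast thus depends on the threshold, while the fast count stayed at 37 from 2 to 5%.

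Other genes were then compared between the 44 slow-majority barcodes (171660 UMIs) and the 37 fast-majority barcodes (117341 UMIs). Of 421 genes with at least 100 UMIs outside the 5 pairs, 25 (5.94%) were at least 2-fold higher in the slow group and 19 (4.51%) at least 2-fold higher in the fast group. Tropomyosin 3 (Tpm3), the slow-fibre tropomyosin, had 1959 UMIs in 44 of 44 slow-majority barcodes and 1 UMI in the 37 others, a ratio of 1339 (240 to 52919). Tpm1 went the other way, with 112 UMIs in the slow and 2137 in the fast group, and was 27.9-fold higher per UMI in the fast group (23.1 to 34.1). The third tropomyosin, Tpm2, was near-equal, at 11832 and 12843 CPM. Tpm2 was thus found with Tpm3 in one group and with Tpm1 in the other.

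The calcium cycle differed in its parts. Sln had 362 UMIs in 34 slow-majority barcodes and 1 in the fast group, a ratio of 247 (44.1 to 9800). The slow-fibre calcium pump Atp2a2 was 7.78-fold higher in the slow group (3.78 to 18.6). The fast-fibre pump Atp2a1 was 10.2-fold higher in the fast group (7.34 to 14.4) and was in 37 of 37 fast-majority barcodes. Parvalbumin (Pvalb), the soluble calcium buffer of fast fibres, had 0 against 100 UMIs. It was 48.8-fold higher in the fast group when 3 UMIs are put in place of 0, and the exact interval starts at 38.9-fold. Pvalb was in 13 of the 37, so the fast barcodes were not alike in it. The light chain Myl6b, carried in the same list, had 91 UMIs in the slow group and 0 in the fast. In the same way it was 20.7-fold higher, and the exact interval starts at 16.5-fold. Atp2a2 and Myl6b each had under 100 UMIs over both groups, so they are not among the 421 genes counted above.

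At the Z disc, 4 genes were at least 2-fold higher in the slow group and 2 in the fast, of 14. Myoz2 was 2.52-fold higher in the slow group (2.20 to 2.89), with 995 against 270 UMIs. Its relative Myoz1 was 26.0-fold higher in the fast group (14.9 to 49.6), and alpha-actinin 3 (Actn3) 54.1-fold (18.0 to 266), in 9 of 37 barcodes. Cryab was 2.85-fold higher in the slow group, the stretch-responsive gene Ankrd2 2.94-fold and Csrp3 2.69-fold. Titin-capping Tcap and desmin differed by less than 2-fold.

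Some glycolytic genes were higher in the fast group and others were close. Of the 7 genes of the shared glycolysis list with 100 UMIs, 4 were at least 2-fold higher there (Ldha, Aldoa, Gapdh and Tpi1). None was so in the slow group. Pkm, Gpi1 and the ATP/ADP carrier gene Slc25a4, which is listed but is not glycolytic, were within 2-fold. Lactate dehydrogenase A (Ldha) was 4.18-fold and aldolase A (Aldoa) 3.42-fold higher in the fast group. Of the 11 muscle energy genes, 3 were at least 2-fold higher in the fast group and 8, Pgam2 among them, were within 2-fold. The 3 were Eno3, 11.3-fold (8.33 to 15.6), the selecting gene Ckm, 3.32-fold, and the glycogen phosphorylase gene Pygm. Nuclear genes of oxidative phosphorylation were within 2-fold in 34 of 34 cases, with a median log2 ratio, slow over fast, of -0.27. Mb, at 6793 and 7261 CPM, Acta1, at 44192 and 41060 CPM, and Cox8b were also close. The slow group was not set apart by genes of mitochondrial respiration in these counts.

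**Figure D4:**
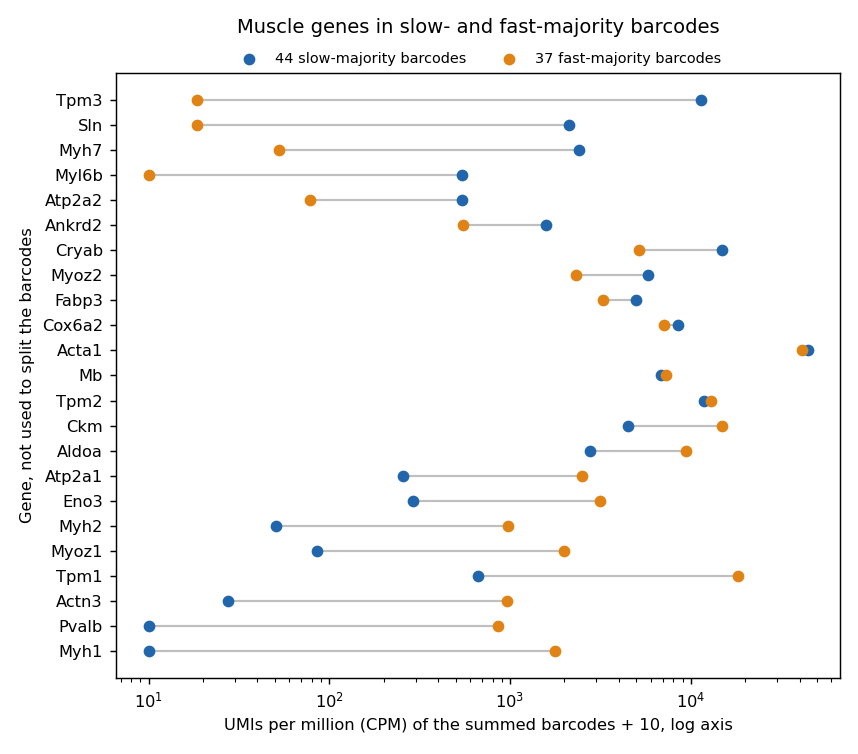
CPM + 10 (log axis) of 23 muscle genes that did not split the barcodes, summed over the 44 slow-majority (blue) and 37 fast-majority (orange) barcodes. Tpm3, Sln and Myh7 lie far to the right in blue, Tpm1, Actn3, Pvalb and Myh1 in orange, and Acta1, Mb and Tpm2 nearly coincide.

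Outside the muscle lists, carbonic anhydrase 3 (Car3), a marker of slow fibres, was 3.41-fold higher in the slow group (2.88 to 4.05), and the heat shock protein genes Hspb7 and Hspb1 3.17- and 3.18-fold. Elongation factor Eef1a1, the form used outside muscle, had 144 against 13 UMIs. Dcn, Gsn and Malat1 were also counted as higher in the fast group. That rests on 1 barcode described below, which held 148 of the 167 Malat1 UMIs of all 81.

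RNA kept in the nucleus and RNA made in mitochondria were both low in the selected barcodes. The nuclear-retained transcript Malat1, abundant in most single-cell libraries, had 167 UMIs in the 81 barcodes and 185241 in the others, 578 against 35002 CPM. It had no UMI in 68 of 81 barcodes (84.0%), against 23 of 934 (2.46%). Of the 5 nuclear-retained RNAs with 20 UMIs, all 5 were lower, with a median log2 ratio of -3.29, and Neat1 had 7 against 1116 UMIs. Mitochondrially encoded RNA had a median of 0.166% of UMIs, from 0 to 9.08%, against 1.76% in the others, and 67 of 81 barcodes (82.7%) were under 1%, against 69 of 934 (7.39%). Of 13 such genes, 12 were at least 2-fold lower.

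Nuclear-encoded subunits of the same respiratory chain went the opposite way. All 36 were at least 2-fold higher, with a median log2 ratio of 2.65, and they made up a median of 5.89% of UMIs against 0.737%. The ATP synthase subunit gene Atp5g1 had 4228 against 194 CPM and the cytochrome oxidase subunit gene Cox5a 2958 against 142, while the succinate dehydrogenase gene Sdha was the lowest, 1.17 higher on the log2 scale. Set against each other, nuclear respiratory-chain UMIs outnumbered mitochondrially encoded UMIs 10.1 to 1 in the selected barcodes and 0.439 to 1 in the others. Both groups had passed a limit of 10% on mitochondrial RNA.

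**Figure D5:**
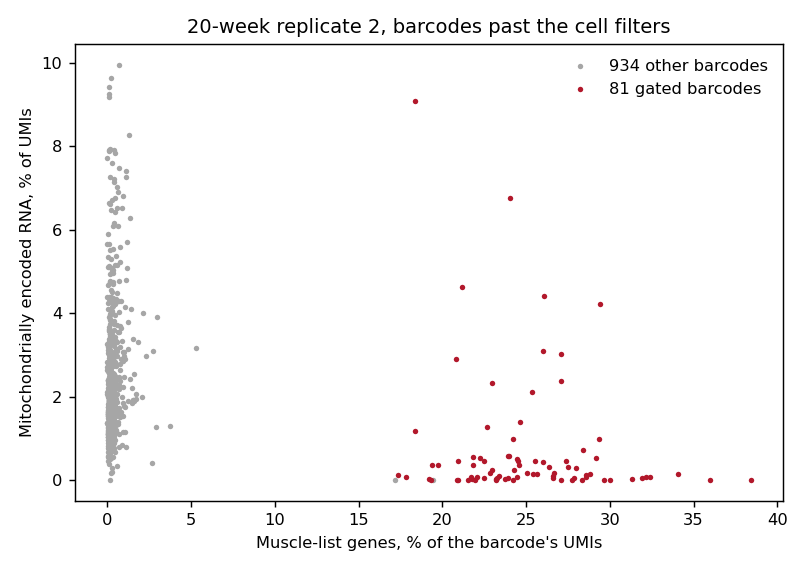
Mitochondrially encoded RNA (% of UMIs) against the summed muscle lists, selecting genes included (% of UMIs), for each filtered barcode of the second 20-week library. The 81 selected barcodes (red) lie at 17.4 to 38.4% muscle RNA, most under 1% mitochondrial RNA, and the 934 others (grey) mostly under 1% muscle RNA.

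The selected barcodes were also smaller in RNA. Their median was 2400 UMIs (1013 to 12518) and 958 genes, against 5337 UMIs and 1955 genes. At a common depth of 1000 UMIs the medians were 493 and 597 genes, so the difference in gene number was smaller at equal depth. Slow- and fast-majority barcodes had medians of 2418 and 2400 UMIs, with means of 3901 and 3171, and of 1021 and 823 genes. Their medians of mitochondrial RNA were 0.138 and 0.170%. Ribosomal protein genes took 12.7% of UMIs, against 13.9% in the others.

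The shared glycolysis list was higher in 8 of 10 genes, with a median of 1.79. It also holds the gene of the ATP/ADP carrier, which is not a glycolytic gene. Aldoa had 5467 against 306 CPM and the ATP/ADP carrier Slc25a4 8363 against 392. The exceptions were Pgam1 and Eno1, the forms that muscle replaces with Pgam2 and Eno3, at 41.5 against 90.1 and 55.4 against 81.6 CPM.

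RNA of other cell types was close to absent. The 8 fibroblast genes summed to 346 UMIs, 1197 against 52586 CPM, and all 8 were lower, with a median of -5.77. They had no UMI in 63 of 81 barcodes (77.8%), against 53 of 934 (5.67%), and 80 of 81 had no more than 2. A single barcode held 326 of the 346 UMIs, and without it the sum was 71.6 CPM. That barcode had 9739 UMIs and 2665 genes, no slow UMIs, 20 of the 41 Myh4 UMIs and 9.37% of its UMIs from the selecting genes. Leaving it out lowers the Myh4 share of adult myosin from 5.24 to 2.76%. Doublets were not called, and whether it held 2 cells was not tested.

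The tenocyte list was lower in 8 of 8 genes and summed to 28 UMIs, with Tnmd, Comp and Chad at 0, and 5 of 8 at 0 in all. The progenitor list was lower in 8 of 8 and had 35 UMIs, 28 of them in 1 barcode. Mural, endothelial, leukocyte, erythroid and B-lineage lists had 1, 2, 1, 3 and 2 UMIs in the 81 barcodes against 2477, 541, 589, 279 and 9789 in the others, and the osteogenic list 0 against 3454. Schwann, chondrocyte and adipocyte lists had 8, 5 and 23 UMIs, against 2543, 395 and 459 in the others. The adipocyte list was thus not low per UMI, at 79.6 against 86.7 CPM, with 1 gene higher and 1 lower. Of the adipocyte UMIs 18 were of Plin4, a lipid droplet protein also found in muscle. The defining genes Cdh5, Ptprc, Cd79a and Rgs5 were at 0.

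Genes of muscle stem cells were mostly at 0. Pax7, Myf5 and Myod1 had 0 UMIs in the 81 and 50, 65 and 26 in the others, and 6 of the 10 precursor genes were at 0. These counts are near the floor at this depth, so the zeros do not show absence. Of the 7 with at least 20 UMIs, 3 were lower, 3 within 2-fold and 1 higher. Their median log2 ratio was -0.96, against -0.70 over all genes. The higher one was Myf6, the myogenic factor kept on in mature fibres, with 56 UMIs in 31 barcodes against 7 in the others, 4.17 higher on the log2 scale. Myogenin (Myog) had 4 against 0 UMIs. Embryonic Myh3 had 8 UMIs in 4 barcodes, perinatal Myh8 1 and cardiac actin Actc1 6.

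Genes of the nerve contact, wasting and the tendon contact were mixed. Trim63 and Fbxo32, ubiquitin ligases that rise in muscle atrophy, had 30 against 1 and 37 against 87 UMIs, at log2 ratios of 3.48 and 2.38, and the synaptic adaptor Dok7 was 2.28 higher. The acetylcholine receptor gene Chrna1 had 2 UMIs and Chrnb1 and Chrne 0. Of 6 myotendinous genes measured, Nrap (192 against 11 UMIs) and Ankrd1 were higher, and Lama2, Maml2 and Thbs4 lower. Col22a1, the collagen of the muscle-tendon junction, had 0 UMIs in the selected barcodes and 18 in the others.

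Genes of the stress of dissociation were low. Of 15, 14 were at least 2-fold lower, with a median of -4.19, and Fos had 5 UMIs in 5 barcodes against 13952 in 531. Egr1 had 1 against 9090 UMIs and Junb 3 against 9500. Hspb1, which is also a muscle chaperone, was the 1 gene higher, at 1779 against 248 CPM.

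Outside all muscle lists, the 10 genes with the highest ratios were Car3, Apobec2, Hspb6, Hspb7, Ankrd23, Ppp1r27, Eef1a2, Ldhb, Klhl41 and Tuba4a. Car3 had 993 against 27 UMIs, and Apobec2, a muscle member of the cytidine deaminase family, had 659 against 9 and was in 77 of 81 barcodes. The 10 lowest were Cd9, Egr1, Abi3bp, Comp, Mgp, Fos, Hist1h2ap, Prg4, Junb and Col1a1. Cd9, a membrane tetraspanin, had 0 UMIs against 7510 in 801 of 934 barcodes. It was 137-fold lower when 3 UMIs are put in place of 0, and the exact interval starts at 111-fold. The lubricin gene Prg4 had 5 UMIs against 12972, all 5 in 1 barcode.

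In some pairs, named after their values were seen, the muscle form of a general gene was high and the general form low. The ribosomal protein gene Rpl3l had 138 against 5 UMIs, while its general form Rpl3 had 72 against 8468, a 6.42-fold lower level (5.09 to 8.22). Elongation factor Eef1a2 had 315 against 17 UMIs, and Eef1a1 157 against 18078, 6.29-fold lower (5.37 to 7.41). Cytoplasmic actin Actb had 56 UMIs in 22 of 81 barcodes against 13679 in 901 of 934, 13.3-fold lower, and the non-muscle light chain Myl6 was 7.83-fold lower. The lactate dehydrogenase genes Ldhb and Ldha, looked up with these, were both higher, at log2 ratios of 5.68 and 1.69.

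The 14 barcodes past the same threshold at 2 weeks were a different mixture. Their share of the 6 genes ran from 4.80 to 26.5%, with a median of 20.9%, and all 14 were fast-majority, the highest slow share being 2.60%. Mylpf was the leading selecting gene, at 38.0% of the 6 genes' UMIs (37.2 to 38.9), against 9.10% in the 81 barcodes at 20 weeks, and Acta1 was 23.6%. Of 111 adult myosin UMIs, 88 were Myh4, 22 Myh1, 1 Myh2 and 0 Myh7. Pvalb had 227 UMIs and Actc1 123, or 2003 CPM against 20.8 CPM in the 81 barcodes.

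The 2 sets shared some of what they lacked. The 14 had no Malat1 UMI in 13 barcodes and a median of 0.0392% mitochondrial RNA against 2.27% in the other 4950 of that library. Fibroblast genes had 279 UMIs in them, 258 in 1 barcode. Age and library cannot be told apart here, since at each age the barcodes past the threshold came from 1 library.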

How the data were processed

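Single-cell UMI counts per gene and cell barcode were used from 3 patellar tendon libraries, 1 at 2 weeks and 2 at 20 weeks. The authors made these counts with Cell Ranger 6.1.2 against mm10, per the submitters' processing notes. The gene annotation used and the program's settings are not given in the sources used here. A barcode was kept when it had 500 genes and 1000 UMIs or more and no more than 10% of its UMIs from mitochondrially encoded genes, and kept barcodes with at least 2% of UMIs from the 6 selecting genes were taken. No doublet caller was run. Deposited counts were summed over barcodes, scaled to counts per 1000000 (CPM) and compared as log2(CPM + 10) for genes with at least 20 UMIs (100 for slow against fast). A UMI marks 1 molecule read at its 3' end, so counts were not divided by gene length.

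The members and the gene lists were chosen with earlier results of these data known. The genes named were the 6 selecting genes, the members of each muscle list with most UMIs (up to 6) or with none, slow and fast partners, the 10 highest and 10 lowest genes outside the muscle lists, and the markers of each cell type list. Others are named where the text says they were chosen after their values were seen, or to show an exception or a comparison of slow with fast barcodes. Aldoa has more than 1 identifier in the files and its first was used, and Ahsp was not measured. Intervals are Clopper-Pearson. The calculations were tested on simulated data. Python 3.11.15, numpy 2.4.6, scipy 1.17.1 and pandas 2.3.3 were used. Alternatives covered the threshold, the selecting genes, the cell filters, depth, pseudocount, scaling, the low-count filter and the comparison barcodes.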

Additional observations from a re-analysis of the deposited data

Results flagged for a closer look

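Muscle RNA was also high in barcodes that the cell filters had removed and that no comparison above used. In the second 20-week library, 78 of the 154 barcodes that failed the filters (50.6%) passed the 2% threshold, with a median of 802.5 UMIs, 1.09% mitochondrial RNA and 7.86% of UMIs from the selecting genes. Of the 78, 34 were slow-majority and 44 fast-majority, 71 had no Malat1 UMI, 62 had under 1000 UMIs, 70 under 500 genes, and 8 failed on mitochondrial RNA alone. With no filter the library held 159 such barcodes of 1169. At 2 weeks, 8 of the 690 barcodes that failed the filters passed the threshold, and in the first 20-week library 0 of 106 did. Their part in the results was not tested.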

How the results depend on the processing

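Over 360 alternative values, 297 moved little and 63 moved further. Of these, 1 changed sign: the median of the developmental and fusion list, on 2 genes, went from -0.87 to 0.40 with no filter on low counts. The number of selected barcodes depended on the filters and the threshold: 30 at a 10% threshold, 37 with stricter filters and 159 with none, and at 2 weeks 5 and 22 with stricter filters and with none. Slow-majority barcodes numbered 0 at 10% and 22 with stricter filters, fast-majority ones 15 with stricter filters, where the median was 4643 UMIs. Genes lower numbered 6513 with a pseudocount of 1 CPM, and genes higher 767 among those with at least 100 UMIs. Scaling by UMIs outside the muscle lists gave 1558 genes higher and 3834 lower and moved the median of all genes from -0.70 to -0.59.

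The other list medians moved with the settings and kept their sign. At a 1% threshold they were -2.68 for nuclear-retained RNA and -4.49 for fibroblast genes. At 10% the comparison barcodes took in those between 2 and 10%, all 44 slow-majority ones among them. The slow-fibre median was then 0.146, against 7.83 at 2%. The list medians at 10% were 3.56 for the thick filament, 4.21 for the thin filament, 3.54 for the Z disc, 4.10 for energy and -6.51 for fibroblast genes. With a pseudocount of 1 CPM they were 7.91, 7.92, 7.05, 6.08 (calcium), 7.04, -4.93 (nuclear-retained) and -6.39. With at least 100 UMIs they were 6.65 for the thick filament, 5.09 for calcium and 6.33 for energy. Fibroblast genes were at -6.38 as a mean over barcodes and -6.75 without the barcode with fibroblast RNA. The Myh4 share was 7.18% at 1%, 8.73% at 10% and 2.76% without that barcode. The synapse and atrophy median, 2.28 on 5 genes, was not stable. It was 0.04 with no filter on low counts, 0.50 with at least 100 UMIs and 0.65 with stricter cell filters. With a pseudocount of 1 CPM it was 2.89.

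No paired analysis was possible because the result comes from no test and each value is of 1 library; for the same reason no replicate was left out. Leaving out the barcode with fibroblast RNA, widening the selecting set and repeating the slow and fast counts were chosen after seeing the data. Genes with under 20 UMIs are not resolved at this depth.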

Other observations

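Reporter sequences listed beside the mouse genes had UMIs in this library, mostly outside the muscle-rich barcodes, although the labels give the genotype as WT. tdTomato had 6 UMIs in 5 of the 81 barcodes and 1401 in 253 of the other 934, and EGFP had 0 and 58.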
